A study of Mus musculus with 9 samples.

Results

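The unfolded protein response and the integrated stress response were followed through 32 genes in mouse pancreatic ductal adenocarcinoma cells that had been recovered from lungs. The members were found by gene symbol among the 24012 genes of the expression table, and all 32 were present. They were grouped by role into 4 sensors and transcription factors of the endoplasmic reticulum (ER), 15 ER folding genes, 4 genes of ER-associated degradation (ERAD) and 9 genes of the branch that runs through the transcription factor ATF4.

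The 3 groups held 3 libraries each. DTC was the label of GFP-positive cells sorted 5 days after the tumour cells had been injected through the tail vein. mCherryHigh and mCherryLow were GFP-positive cells sorted at 6 weeks for a high or a low signal of a Gstt1-mCherry reporter, in which the red protein follows Gstt1, a glutathione transferase. All groups carried the genotype written SIRT6F/F/p48-Cre/p53F/+KrasL/+ in the labels, so floxed Sirt6 is shared by every library, mCherryLow included, and cells with intact Sirt6 were not analysed here. p48-Cre is active in the pancreas. Whether each library of a group stands for its own mouse is not stated in the labels, and p-values here measure only the spread between these libraries. Sort gate, time after injection and a code series of the labels held by DTC alone cannot be told apart in any comparison with DTC.

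The ER folds secreted and membrane proteins with chaperones and with isomerases that make disulfide bonds. When unfolded protein builds up there, the membrane sensors IRE1 (gene Ern1), PERK (Eif2ak3) and ATF6 start the unfolded protein response: IRE1 splices the mRNA of Xbp1, ATF6 is cut to release a transcription factor, and both raise chaperone and ERAD genes. PERK and related kinases phosphorylate eIF2-alpha, which lowers protein synthesis while the translation of ATF4 mRNA increases, and ATF4 then induces genes of amino acid supply and, with DDIT3, of cell death. In the secretory cells of the pancreas the chaperone arm is active under normal conditions.

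Library totals ranged between 923988 and 2052623 reads in DTC, 643748 and 9800173 in mCherryHigh, and 2051266 and 11861241 in mCherryLow. Gstt1 ranged between 6.09 and 11.2 counts per 1000000 reads (CPM) in DTC, 48.4 and 60.6 CPM in mCherryHigh, and 11.9 and 29.4 CPM in mCherryLow. DTC 3 stood apart from DTC 1 and DTC 2. The 8 tumour epithelial markers, keratins Krt8 and Krt18 among them, summed to 445 CPM in DTC 3, against 5348 CPM in DTC 1 and 6058 CPM in DTC 2. They summed to between 1791 and 6004 CPM in the 6 libraries sorted on mCherry, called the sorted libraries from here on. The highest of these was mCherryHigh 1, with mCherryHigh 5 and 6 at 2180 and 2204 CPM. Over all genes, Spearman correlations between libraries of a group were 0.760 to 0.937 in mCherryHigh, 0.869 to 0.922 in mCherryLow and 0.857 to 0.921 in DTC. Most of the tumour epithelial sum is Krt8, Krt18 and Krt19. Epcam was at 4.38 to 21.3 CPM in DTC and 10.9 to 45.4 CPM in the sorted libraries, and Cldn4 was at 0 in DTC 2 and DTC 3. Sox9 went the other way, at 110, 166 and 55.2 CPM in DTC 1, 2 and 3, against 32.5 to 51.3 CPM in the sorted libraries. Of the 8 genes, 1 was called higher and 1 lower in DTC than in mCherryLow. Against mCherryHigh, 0 were called higher and 1 lower. Macrophage markers (12 genes, Lyz2 leading) summed to between 3672 and 6799 CPM in DTC, highest in DTC 3, and to between 510 and 1128 CPM in the sorted libraries. Of those 12 genes, 9 were called higher in DTC than in mCherryLow and 8 higher than in mCherryHigh, and C1qb and C1qc were at 0 in all mCherryHigh libraries and in mCherryLow 5 and 6. Endothelial markers summed to between 230 and 500 CPM in DTC and 16.1 and 59.0 CPM in the sorted libraries (9 of 9 genes called higher in DTC than in mCherryLow, 6 of 9 than in mCherryHigh). T and NK cell markers summed to between 52.1 and 249 CPM in DTC and 1.596 and 9.32 CPM in the sorted libraries (6 of 6 and 5 of 6 tested called higher). Alveolar and club cell markers summed to between 135 and 490 CPM in DTC and 9.39 and 41.9 CPM in the sorted libraries (6 of 8 and 6 of 7 tested called higher). B and plasma cell markers, most of whose sum is Sdc1 (32.5 to 212 CPM in DTC and 106 to 670.4 CPM in the sorted libraries), summed to between 129 and 254 CPM in DTC and 116 and 680 CPM in the sorted libraries, and 3 of 5 tested were called higher in DTC than in mCherryLow and 3 of 7 than in mCherryHigh, with 0 lower. Over all genes tested, 34.2% were called higher in DTC than in mCherryLow and 23% higher than in mCherryHigh. In bulk libraries, fewer cells of a type and less RNA per cell cannot be told apart. The part of these other cells in the results below was not tested, and counts are given with and without DTC 3.

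Per kilobase of the longest annotated transcript, the most abundant members were ER folding genes in each group, with the ATF4 branch gene Cebpb near them. In DTC the order began with the ER chaperone Hsp90b1 at 301 CPM per kilobase, the transcription factor Cebpb at 272 and the ER Hsp70 chaperone Hspa5 at 234. The disulfide isomerase Pdia3 at 226 and the lectin chaperone Calr at 215 came next, and Atf4 was at rank 7 with 186. The place of Cebpb in DTC rests on DTC 3, at 668 CPM, against 289 and 269 CPM in DTC 1 and 2. In mCherryHigh it began with Calr at 639 CPM per kilobase, the isomerase P4hb at 612, Hspa5 at 580 and Pdia3 at 549. In mCherryLow it began with Hspa5 at 791 CPM per kilobase, Calr at 694 and Pdia3 at 626. Neighbours among these leading genes did not part beyond the spread of the libraries. The least abundant member per kilobase was Ern1 in every group, at 5.42 in DTC, 11.7 in mCherryHigh and 5.37 in mCherryLow. No member was at 0 in any library. The thinnest values were 5 reads for Atf3 in mCherryHigh 1, 6 reads for Trib3 in DTC 1 and 9 reads for Asns in DTC 3, so these are the least precise. The 15 ER folding genes together took 0.551%, 0.849% and 0.271% of the reads of DTC 1, 2 and 3, between 1.04% and 1.30% in mCherryHigh and between 0.888% and 1.62% in mCherryLow.

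**Figure D1:**
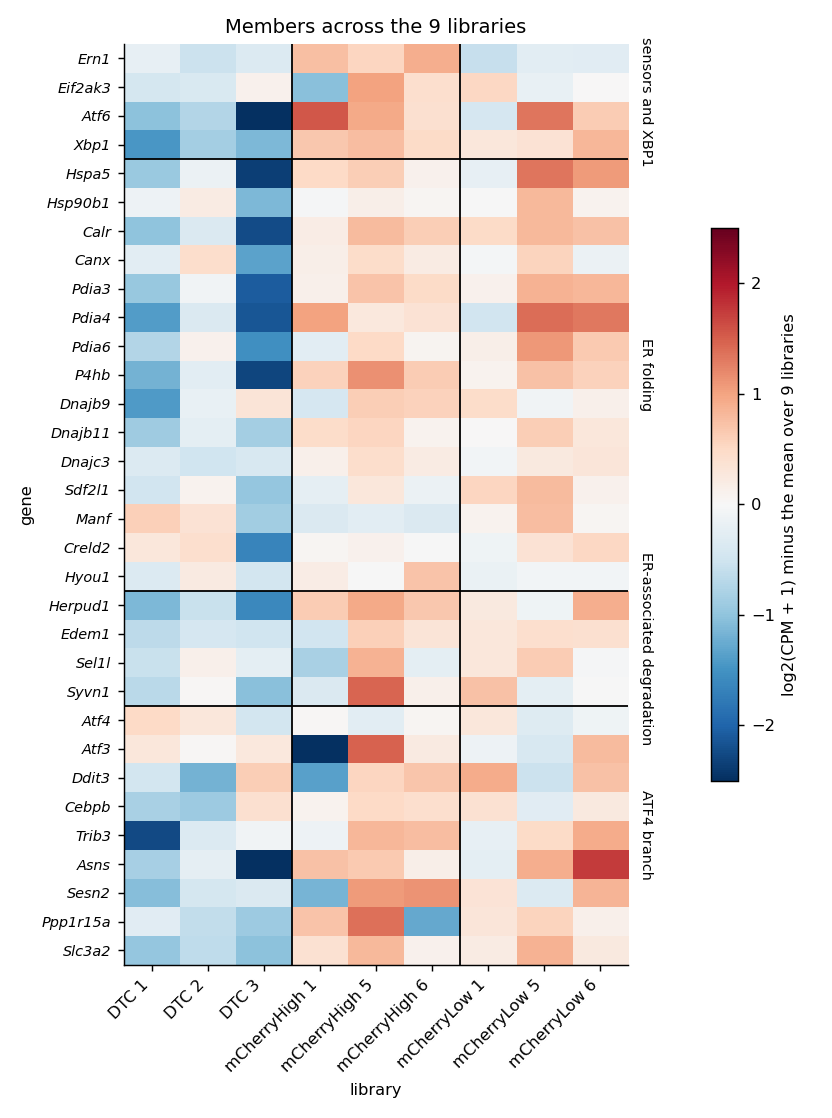
Heat map of the 32 members (rows, grouped by role) in the 9 libraries (columns: DTC, mCherryHigh, mCherryLow); colour gives log2(CPM + 1) minus the gene's mean over the 9 libraries. Xbp1, Calr, P4hb, Herpud1 and Slc3a2 are below their mean in all 3 DTC libraries, DTC 3 is the lowest DTC library for 12 of the 15 ER folding genes, and the ATF4 branch rows are mixed.

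Part of the members held DNA elements known from this pathway before their start. The 250 bases before the annotated start were read from RefSeq sequences of GRCm38.p6 for 29 of the 32 members, all but Manf, Hyou1 and Atf6. The ER stress element (CCAAT, any 9 bases, CCACG), a site for ATF6 and XBP1 with the factor NF-Y, was found on either strand in 8 members: Hspa5, Hsp90b1, Calr, Canx, Pdia6, Dnajc3, Creld2 and Syvn1. These were 7 of the 13 ER folding genes read, 1 of 4 ERAD genes, 0 of 3 sensors and 0 of 9 ATF4 branch genes, while 0.1295% of 27025 gene promoters held the element. Its second form (ATTGG, any 1 base, CCACG) was in Herpud1 alone among the members and in 0.037% of all promoters. The core of the C/EBP-ATF response element (TGATGNAA), a site for ATF4 with a C/EBP partner, was in Asns, Atf3 and Herpud1, and in 3.907% of all promoters. The unfolded protein response element TGACGTGG was in 0 of 29 members and in 0.6031% of all promoters. No matches overlapped. Below are stretches from members whose expression was called lower in DTC (Hspa5, Calr, Pdia6, Herpud1, Asns) beside stretches with the same elements from members that were not called (Hsp90b1, Canx, Atf3), each 5′ to 3′ on the gene's strand with the element in capitals; in Calr, at the second site of Hsp90b1, and in the first site of Herpud1 and that of Atf3, the element lies on the opposite strand and its complement is shown.
Hspa5 (chr2:34772017-34772051, plus strand): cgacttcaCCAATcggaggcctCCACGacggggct
Calr (chr8:84847067-84847101, minus strand): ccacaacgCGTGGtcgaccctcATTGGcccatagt
Pdia6 (chr12:17266483-17266517, plus strand): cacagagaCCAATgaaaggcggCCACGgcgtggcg
Canx (chr11:50325792-50325826, minus strand): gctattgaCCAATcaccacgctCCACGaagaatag
Hsp90b1 (chr10:86705525-86705664, minus strand): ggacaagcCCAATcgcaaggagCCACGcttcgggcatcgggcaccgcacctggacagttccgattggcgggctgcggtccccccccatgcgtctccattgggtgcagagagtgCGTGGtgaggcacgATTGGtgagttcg
Herpud1 (chr8:94386309-94386395, plus strand): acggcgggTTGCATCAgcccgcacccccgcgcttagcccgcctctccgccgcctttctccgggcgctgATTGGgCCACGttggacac
Asns (chr6:7693217-7693240, minus strand): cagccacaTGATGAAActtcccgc
Atf3 (chr1:191183428-191183451, minus strand): tctcgcacTTGCATCAccaagtcc
A match is a string of letters in this window and not a tested site.

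**Figure D2:**
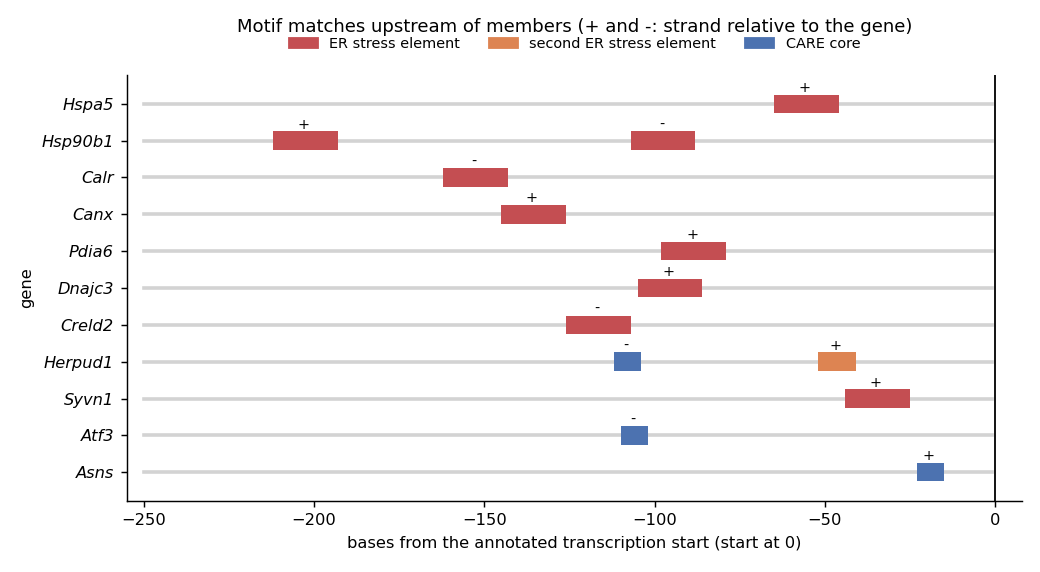
Positions of the element matches in the 250 bases before the annotated start of 11 members (x axis: bases from the start, start at 0; colour: element; plus and minus: strand relative to the gene). The ER stress element lies between positions -212 and -26, Hsp90b1 holds it at 2 places, and Asns has the element of the ATF4 branch nearest to its start.

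DTC was compared with mCherryLow and with mCherryHigh to ask how cells recovered 5 days after injection differ from those recovered at 6 weeks. Both comparisons share the DTC libraries. Members of the chaperone arm and part of the ATF4 branch were lower in DTC, with 14 of 32 members called lower than in mCherryLow and 12 of 32 lower than in mCherryHigh, and 0 called higher. Xbp1 and the ER lumen genes Calr, P4hb, Pdia4 and Pdia3 led, together with Atf6, Herpud1 and the amino acid transporter chain Slc3a2. Atf4 itself, Atf3, Manf and Hyou1 did not pass in either comparison. A member was called at an adjusted p under 0.05 (limma on log2(CPM + 1), Benjamini-Hochberg over all genes tested).

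Over all genes, 8.87% of 18701 were called lower in DTC than in mCherryLow and 34.2% higher, and 7.19% of 19700 lower than in mCherryHigh and 23% higher. Among genes at 20 CPM or more, 16% were called lower against mCherryLow and 13.3% against mCherryHigh, and the members' shares lie above both backgrounds. The groups did not overlap, with DTC lower, for 14 members against mCherryLow (14.2% of all genes) and 13 against mCherryHigh (13.2%). They did not overlap with DTC higher for 0 members, against 39% and 31.4% of all genes. Among genes at 20 CPM or more the split was more even. Against mCherryLow, 2311 of 9374 did not overlap with DTC lower and 2056 with DTC higher. Against mCherryHigh the numbers were 2156 and 1910 of 9517. The median difference of the members was -0.90 against mCherryLow and -0.85 against mCherryHigh on the log2(CPM + 1) scale. Over all genes tested the medians were 0.59 and 0.55, and over those at 20 CPM or more -0.23 and -0.15; relative to the median of all genes the members' medians were -1.49 and -1.39. The split over all genes depended on the scaling: against mCherryLow, 2264 were higher and 2036 lower with quantile normalization, 5648 and 3014 with median-of-ratios scaling and 4559 and 3098 with edgeR, where the main test gave 6405 and 1659. Against mCherryHigh the numbers were 1615 and 1535 with quantile normalization and 3124 and 2118 with edgeR, where the main test gave 4532 and 1417. The members' median stayed below 0 under each of these scalings, and the members below 0 numbered 26 (quantile) to 32 (edgeR, median-of-ratios) against mCherryLow and 27 (quantile) to 31 (edgeR) against mCherryHigh. None of the 32 had an unadjusted p under 0.05 with a higher level in DTC in the main limma test. Against mCherryHigh without DTC 3, 1 member did. On the recovered reads, edgeR and DESeq2 also called 0 higher.

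**Figure D3:**
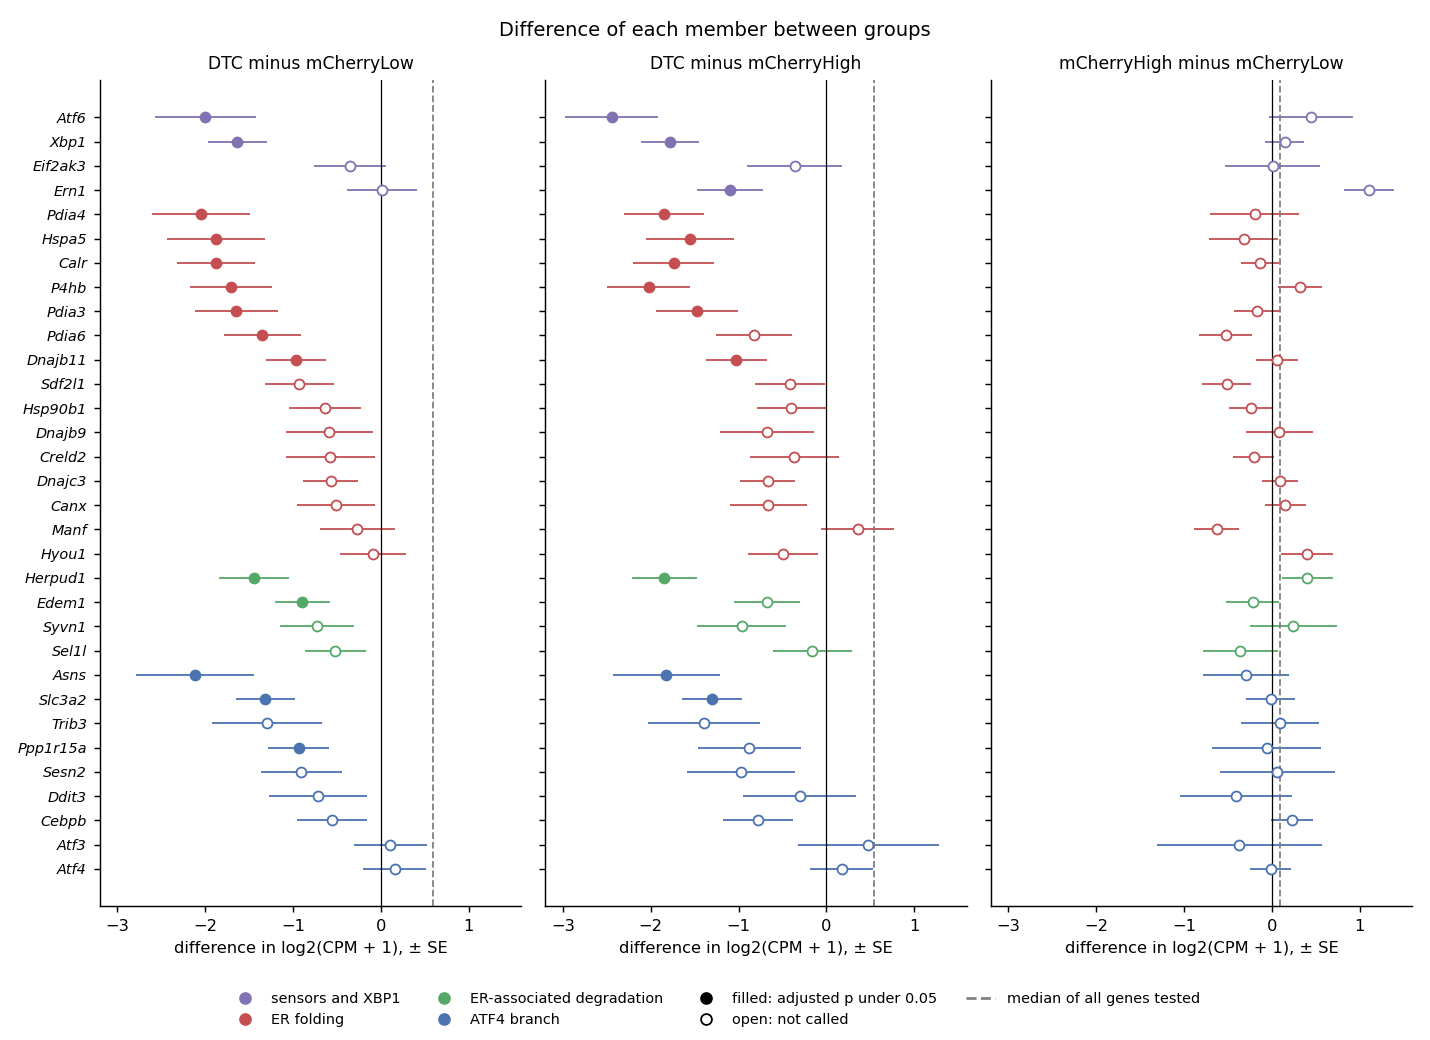
Difference in log2(CPM + 1) of each member with its standard error (x axis) for DTC minus mCherryLow, DTC minus mCherryHigh and mCherryHigh minus mCherryLow; filled points passed an adjusted p of 0.05 and the dashed line is the median of all genes tested. In both DTC panels 29 of 32 members lie below 0, and in the third panel 15 lie above 0 and 17 below.

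Among the sensors and their transcription factors, Xbp1 and Atf6 fell in DTC and Eif2ak3 was not called. Xbp1, the transcription factor made active by IRE1, was at 92.9, 141 and 117 CPM in DTC 1, 2 and 3, against 410.1, 435 and 356 CPM in mCherryHigh 1, 5 and 6 and 311, 330 and 457 CPM in mCherryLow 1, 5 and 6. Every DTC library lay under every sorted library. Xbp1 fell by 1.64 (SE 0.34, limma adjusted p = 0.00278) against mCherryLow, a 3.11-fold lower level on the log2(CPM + 1) scale, and fell by 1.78 (SE 0.33, adjusted p = 0.00402) against mCherryHigh. The table holds 1 value per gene, so spliced and unspliced Xbp1 were not separated. Xbp1 kept its call under all alternatives run for both comparisons, each left-out library included, with differences between -2.17 and -1.19.

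Atf6, the sensor that is itself a transcription factor precursor, was at 50.2, 61.4 and 15.2 CPM in DTC 1, 2 and 3, against 304, 198 and 136 CPM in mCherryHigh 1, 5 and 6 and 77.0, 261 and 161 CPM in mCherryLow 1, 5 and 6. The groups did not overlap, and mCherryLow 1 came nearest to DTC. Atf6 fell by 2.45 (SE 0.53, limma adjusted p = 0.00768) against mCherryHigh and fell by 2.00 (SE 0.57, adjusted p = 0.0150) against mCherryLow. The call against mCherryLow was lost without DTC 3 (-1.40, adjusted p = 0.0513) and without mCherryLow 5 (-1.59, adjusted p = 0.0563). Ern1, which encodes the Xbp1-splicing sensor, averaged 37.6 ± 4.37 CPM in DTC, 81.5 ± 10.2 CPM in mCherryHigh and 37.3 ± 4.47 CPM in mCherryLow (SD, n = 3 each). It fell by 1.09 against mCherryHigh (SE 0.37, limma adjusted p = 0.0465), a call that leaving out any 1 of the 6 libraries ended (adjusted p between 0.0661 and 0.145), as did quantile normalization, no filter and limma without trend (adjusted p between 0.0579 and 0.0894), and differed by 0.01 (SE 0.39) from mCherryLow. Eif2ak3, the gene of PERK, averaged 36.8 ± 8.47 CPM in DTC, 54.97 ± 33.5 CPM in mCherryHigh and 47.6 ± 12.8 CPM in mCherryLow (SD, n = 3 each), with differences of -0.36 against mCherryHigh and -0.35 against mCherryLow.

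Of the 15 ER folding genes, 7 fell against mCherryLow and 6 against mCherryHigh. Calr, Pdia3, Pdia4, P4hb, Hspa5 and Dnajb11 fell in both and Pdia6 against mCherryLow. Calr, calreticulin, which holds glycoproteins until they are folded, was at 470.4, 740.5 and 199 CPM in DTC 1, 2 and 3, against 1079.6, 1649 and 1456 CPM in mCherryHigh 1, 5 and 6 and 1314, 1660.3 and 1573 CPM in mCherryLow 1, 5 and 6. All DTC values lay below all others, and DTC 3 was the lowest. Calr fell by 1.87 (SE 0.44, limma adjusted p = 0.00567) against mCherryLow and fell by 1.74 (SE 0.46, adjusted p = 0.0172) against mCherryHigh. The call against mCherryHigh was lost without mCherryHigh 5 (adjusted p = 0.0552) or DTC 1 (adjusted p = 0.0567), and with limma without trend (adjusted p = 0.0502).

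Pdia4, a disulfide isomerase with several active domains, was at 138, 285 and 82.3 CPM in DTC 1, 2 and 3, against 739, 440.0 and 472 CPM in mCherryHigh 1, 5 and 6 and 260.3, 969 and 916 CPM in mCherryLow 1, 5 and 6. DTC did not overlap mCherryHigh, while DTC 2 lay above mCherryLow 1. Pdia4 fell by 2.05 (SE 0.56, limma adjusted p = 0.0116) against mCherryLow and fell by 1.85 (SE 0.45, adjusted p = 0.0124) against mCherryHigh, and both calls were lost without DTC 1 (adjusted p = 0.0543 and 0.0525). Thinning to the shallowest library also ended the call against mCherryLow (adjusted p = 0.0511).

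P4hb, protein disulfide isomerase itself, was at 441, 839 and 205 CPM in DTC 1, 2 and 3, against 1489.7, 2206 and 1558 CPM in mCherryHigh 1, 5 and 6 and 1060.3, 1662 and 1498 CPM in mCherryLow 1, 5 and 6. The groups did not overlap. P4hb fell by 2.02 (SE 0.48, limma adjusted p = 0.0103) against mCherryHigh and fell by 1.71 (SE 0.47, adjusted p = 0.0121) against mCherryLow, where the call was lost without DTC 1 (adjusted p = 0.0564). Pdia3, the isomerase that works with calreticulin on glycoproteins, was at 576, 1039.65 and 262 CPM in DTC 1, 2 and 3, against 1210.1, 1813 and 1539.6 CPM in mCherryHigh 1, 5 and 6 and 1204, 2030.3 and 1968 CPM in mCherryLow 1, 5 and 6. DTC 2 was the closest to the sorted libraries and still below each of them. Pdia3 fell by 1.64 (SE 0.47, limma adjusted p = 0.0150) against mCherryLow and fell by 1.47 (SE 0.47, adjusted p = 0.0358) against mCherryHigh. Against mCherryLow the call was lost without DTC 1, mCherryLow 5 or mCherryLow 6 (adjusted p between 0.0512 and 0.0646), and against mCherryHigh without DTC 1, DTC 3, mCherryHigh 5 or mCherryHigh 6 (adjusted p between 0.0770 and 0.106). The call of Pdia3 against mCherryHigh was also lost under quantile normalization, thinning and limma without trend (adjusted p between 0.0574 and 0.0887).

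Hspa5, the ER Hsp70 chaperone also known as BiP, lay between 309.5 and 1427 CPM in DTC, 1719 and 2419 CPM in mCherryHigh, and 1374 and 4032 CPM in mCherryLow. It fell by 1.88 (SE 0.56, limma adjusted p = 0.0177) against mCherryLow, whose lowest library DTC 2 exceeded, and fell by 1.55 (SE 0.50, adjusted p = 0.0376) against mCherryHigh. Without DTC 3 the differences were -1.27 (adjusted p = 0.0535) and -0.95 (adjusted p = 0.0694), and the calls were also lost without DTC 1, without mCherryLow 5 or 6, and without any mCherryHigh library. Quantile normalization and thinning also ended the call of Hspa5 against mCherryLow (adjusted p = 0.0529 and 0.0550), and thinning, a filter at 5 CPM and limma without trend that against mCherryHigh (adjusted p between 0.0537 and 0.0884). Dnajb11, an Hsp40 partner of BiP, fell by 0.97 (SE 0.35, limma adjusted p = 0.0405) against mCherryLow and fell by 1.02 (SE 0.34, adjusted p = 0.0439) against mCherryHigh, and its calls held without DTC 2 alone among the left-out libraries. Quantile normalization moved Dnajb11 to -0.55 (adjusted p = 0.218) and -0.63 (adjusted p = 0.193), and thinning, no filter and limma without trend also ended both calls (adjusted p between 0.0505 and 0.118). The isomerase Pdia6 fell by 1.35 (SE 0.44, adjusted p = 0.0260) against mCherryLow, a call lost without DTC 1, DTC 3, mCherryLow 5 or mCherryLow 6 (adjusted p between 0.0704 and 0.1001) and under thinning, limma without trend and quantile normalization (-0.79, adjusted p = 0.0939), and was at -0.82 (SE 0.43, adjusted p = 0.174) against mCherryHigh.

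The remaining 8 ER folding genes were not called in either comparison. Against mCherryLow the differences were -0.93 for Sdf2l1, a partner of Dnajb11, -0.64 for Hsp90b1, the ER member of the Hsp90 family, -0.59 for Dnajb9 and -0.57 for Dnajc3, both Hsp40 co-chaperones, -0.57 for the ER protein Creld2, -0.51 for Canx, the membrane-bound relative of calreticulin, -0.27 for the ER-resident secreted factor Manf and -0.09 for Hyou1, which exchanges nucleotide on BiP. Against mCherryHigh their differences lay between -0.67 (Dnajb9) and 0.36 (Manf). Of the 9 members with either form of the ER stress element named above, 4 fell against mCherryLow (Hspa5, Calr, Pdia6 and Herpud1) and 3 against mCherryHigh (Hspa5, Calr and Herpud1), with medians of -0.72 and -0.82. Over all 32 members, 14 and 12 fell, with medians of -0.90 and -0.85. The 32 include these 9, and also Manf, Hyou1 and Atf6, whose promoters were not read. Whether members with the element differ from those without it was therefore not tested. Over all genes, 8.87% and 7.19% were called lower.

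**Figure D4:**
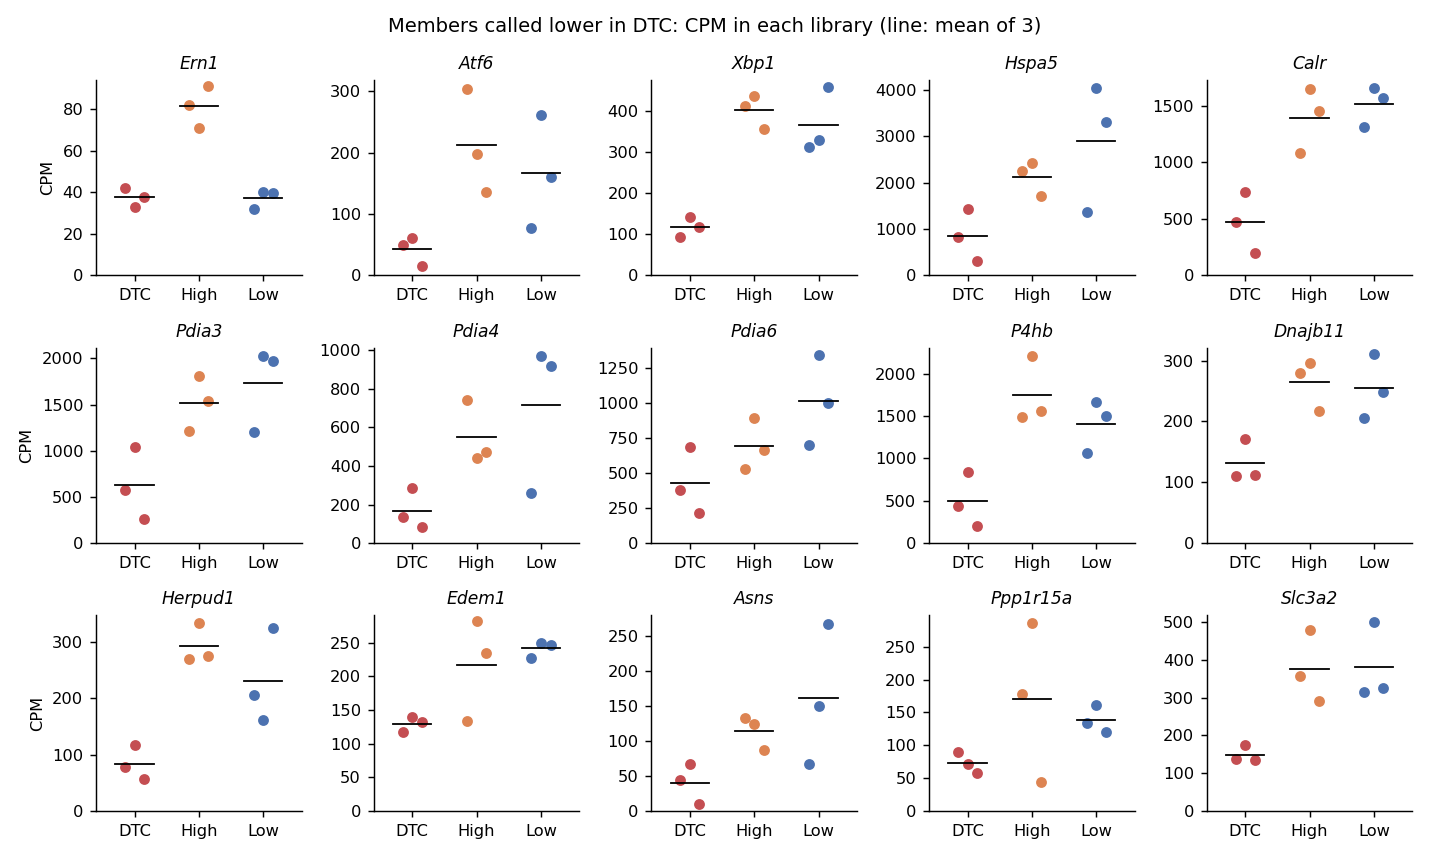
CPM of the 15 members called lower in DTC in at least 1 comparison (y axis from 0, one panel per gene); points are libraries in the order of their numbers, lines are means of 3, and High and Low stand for mCherryHigh and mCherryLow. The 3 DTC points of Xbp1 lie between 92.9 and 141 CPM, under all sorted libraries, whereas for Ern1 DTC and mCherryLow share 1 range.

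In ERAD, the route by which misfolded proteins are pulled out of the ER and degraded, 2 of 4 genes fell against mCherryLow and 1 of 4 against mCherryHigh. Herpud1, a membrane protein that helps assemble the ERAD complex, was at 78.4, 117 and 56.3 CPM in DTC 1, 2 and 3, against 270.3, 333 and 275 CPM in mCherryHigh 1, 5 and 6 and 205, 161 and 325 CPM in mCherryLow 1, 5 and 6. The groups did not overlap. Herpud1 fell by 1.85 (SE 0.37, limma adjusted p = 0.00533) against mCherryHigh under all alternatives run, and fell by 1.45 (SE 0.40, adjusted p = 0.0129) against mCherryLow, where the call was lost without DTC 1 (adjusted p = 0.0554) or mCherryLow 6 (adjusted p = 0.0619) and under quantile normalization (-1.13, adjusted p = 0.0581). Edem1, which marks misfolded glycoproteins for removal, averaged 129.5 ± 11.3 CPM in DTC, 217 ± 76.0 CPM in mCherryHigh and 241 ± 11.9 CPM in mCherryLow (SD, n = 3 each). It fell by 0.90 (SE 0.31, limma adjusted p = 0.0366) against mCherryLow and was at -0.68 (adjusted p = 0.190) against mCherryHigh. The call on Edem1 was lost without DTC 1 or any mCherryLow library (adjusted p between 0.0868 and 0.139), with limma without trend (adjusted p = 0.0986) and under quantile normalization, which moved it to -0.45 (adjusted p = 0.277). The ubiquitin ligase Syvn1 and its adaptor Sel1l were not called, at -0.72 and -0.52 against mCherryLow and -0.97 and -0.16 against mCherryHigh.

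In the ATF4 branch, 3 of 9 genes fell against mCherryLow and 2 of 9 against mCherryHigh, and 0 of 9 in either comparison under quantile normalization. Slc3a2, the heavy chain shared by several amino acid transporters and a target of ATF4, was at 139, 175 and 134 CPM in DTC 1, 2 and 3, against 356, 477 and 292 CPM in mCherryHigh 1, 5 and 6 and 315, 499 and 325 CPM in mCherryLow 1, 5 and 6. The DTC libraries were close together and under all others. Slc3a2 fell by 1.32 (SE 0.34, limma adjusted p = 0.00825) against mCherryLow and fell by 1.30 (SE 0.34, adjusted p = 0.0156) against mCherryHigh, where the call was lost without DTC 1 (adjusted p = 0.0714) or mCherryHigh 5 (adjusted p = 0.0747) and with limma without trend (adjusted p = 0.0563). Quantile normalization moved Slc3a2 to -0.84 (adjusted p = 0.0643) against mCherryLow and -0.87 (adjusted p = 0.0782) against mCherryHigh.

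Asns, asparagine synthetase, averaged 40.4 ± 28.9 CPM in DTC, 114 ± 24.3 CPM in mCherryHigh and 161 ± 100.4 CPM in mCherryLow (SD, n = 3 each). It fell by 2.12 (SE 0.67, limma adjusted p = 0.0243) against mCherryLow, where DTC 2 at 67.2 CPM lay beside mCherryLow 1 at 66.3 CPM, and fell by 1.82 (SE 0.61, adjusted p = 0.0431) against mCherryHigh. Without DTC 3, where Asns rests on 9 reads, the differences were -1.33 (adjusted p = 0.0834) and -1.03 (adjusted p = 0.0844). Both calls were also lost without DTC 1, and that against mCherryLow without mCherryLow 5 or 6 and that against mCherryHigh without any mCherryHigh library (adjusted p between 0.0506 and 0.0934). Both were lost too under quantile normalization and thinning (adjusted p between 0.0669 and 0.1004), and that against mCherryHigh with no filter or without trend. Ppp1r15a, the subunit that turns a phosphatase on eIF2-alpha and so ends the response, fell by 0.94 (SE 0.35, limma adjusted p = 0.0486) against mCherryLow, a call that leaving out any 1 library ended (adjusted p between 0.0778 and 0.133), as did 5 other alternatives (adjusted p between 0.0569 and 0.189), and was at -0.88 (adjusted p = 0.282) against mCherryHigh.

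The transcription factors at the head of the branch were not called. Atf4 averaged 321 ± 102 CPM in DTC, 275 ± 31.5 CPM in mCherryHigh and 281 ± 61.1 CPM in mCherryLow (SD, n = 3 each), differences of 0.17 (SE 0.36) against mCherryHigh and 0.16 (SE 0.36) against mCherryLow that lie within the spread of the libraries. Its direction depended on the setting: against mCherryLow it was 0.68 with quantile normalization, 0.44 without DTC 3, -0.19 with median-of-ratios scaling and -0.31 with edgeR, and against mCherryHigh it lay between -0.16 (edgeR) and 0.64 (quantile). The activity of ATF4 is set largely by translation, which these values do not measure. Atf3, a further stress transcription factor, averaged 57.97 ± 5.502 CPM in DTC, 69.3 ± 67.2 CPM in mCherryHigh and 57.2 ± 26.8 CPM in mCherryLow (SD, n = 3 each). Ddit3, the cell death factor CHOP, was at -0.30 and -0.71, the pseudokinase Trib3 at -1.39 and -1.29, the stress-induced Sesn2 at -0.97 and -0.90, and Cebpb at -0.78 and -0.56 against mCherryHigh and mCherryLow, none of them called. Cebpb was at 289 and 269 CPM in DTC 1 and 2, and at 668 CPM in DTC 3, which lay inside the range of the sorted libraries.

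Without DTC 3, the members called lower numbered 9 against mCherryLow (7.4% of 15753 genes called lower) and 8 against mCherryHigh (5.69% of 17709), and 0 were called higher. The medians were -0.93 and -0.86. The 9 against mCherryLow were Xbp1, Calr, P4hb, Pdia3, Pdia4, Herpud1, Edem1, Slc3a2 and Cebpb, and the 8 against mCherryHigh were Xbp1, Atf6, Calr, P4hb, Pdia4, Herpud1, Slc3a2 and Cebpb. Cebpb, not called with all 3 DTC libraries, was at -0.97 (SE 0.29, limma adjusted p = 0.0329) and -1.20 (SE 0.28, adjusted p = 0.0246). Krt18 was at 3014 and 3046 CPM in DTC 1 and 2, above all sorted libraries (379 to 2482 CPM), whereas Krt19 was at 696 and 885 CPM, below all of them (896 to 2369 CPM). Without DTC 1 the counts were 4 against mCherryLow (Xbp1, Atf6, Calr and Slc3a2; 4.34% of 15916 genes called lower) and 4 against mCherryHigh (Xbp1, Atf6, P4hb and Herpud1; 3.25% of 18080). Without DTC 2 they were 14 (11.6% of 16011 genes) and 12 (8.31% of 18277).

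Set against each other, the ER folding genes and the ATF4 branch did not part between the groups beyond the spread of the libraries. The mean log2(CPM + 1) over the 15 ER folding genes was 7.84 ± 0.66 in DTC, 8.75 ± 0.14 in mCherryHigh and 8.88 ± 0.32 in mCherryLow, and that over the 9 ATF4 branch genes was 6.08 ± 0.11 in DTC, 6.83 ± 0.57 in mCherryHigh and 6.92 ± 0.27 in mCherryLow (SD, n = 3 each). The difference between the lists was 1.92, 2.31 and 1.04 in DTC 1, 2 and 3, against 2.38, 1.52 and 1.87 in mCherryHigh 1, 5 and 6 and 1.73, 2.46 and 1.69 in mCherryLow 1, 5 and 6. The ranges overlapped. DTC minus mCherryLow was -0.20, with a pooled SD of 0.55 between libraries, DTC minus mCherryHigh was -0.16 (pooled SD 0.55), and mCherryHigh minus mCherryLow was -0.04 (pooled SD 0.43). The sign of these differences was not stable. The DTC differences turned to 0.16 and 0.19 without DTC 3 and to 0.14 and 0.15 with quantile normalization, that against mCherryLow to 0.05 without mCherryLow 5 and that against mCherryHigh to 0.06 without mCherryHigh 1. mCherryHigh minus mCherryLow turned to 0.16 without mCherryHigh 5, 0.21 without mCherryLow 5 and 0.02 with thinning.

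Within each group, 1 library was the highest for most of the ER folding genes. Among the DTC libraries, DTC 2 was the highest for 12 of the 15 ER folding genes and DTC 3 the lowest for 12. mCherryHigh 5 was the highest mCherryHigh library for 13, and mCherryLow 5 the highest and mCherryLow 1 the lowest mCherryLow library for 11 each. In the ATF4 branch no DTC library was the highest for more than 4 of the 9 genes, and mCherryHigh 5 was the highest for 5. Genes of 1 library share its depth and composition, so these counts describe the libraries and no test was made.

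**Figure D5:**
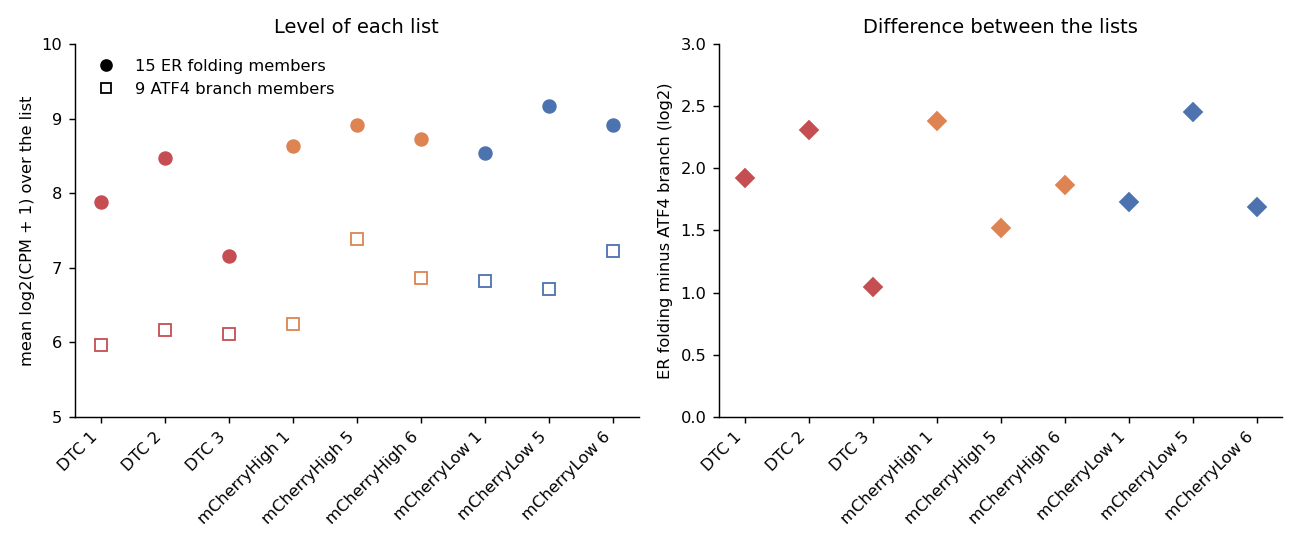
Left, mean log2(CPM + 1) of the 15 ER folding genes (filled circles) and the 9 ATF4 branch genes (open squares) in each library; right, the difference between the lists. The ER folding mean of DTC runs from 7.16 in DTC 3 to 8.47 in DTC 2, below all sorted libraries. The ATF4 branch mean of DTC runs from 5.96 in DTC 1 to 6.16 in DTC 2, also below all sorted libraries (lowest 6.25, mCherryHigh 1). The difference between the lists overlaps between the groups.

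mCherryHigh was compared with mCherryLow to ask whether the stress pathways differ with the level of the reporter. No member was called: 0 of 32 higher and 0 of 32 lower by limma, as for all 15437 genes tested (0% called in each direction), and edgeR and DESeq2 also called 0 members. DESeq2 called 45 genes higher and 87 lower over the whole table, and 1448 genes had an unadjusted limma p under 0.05. The median of the members was -0.01, against 0.09 over all genes and -0.02 over those at 20 CPM or more. Ern1 and Manf were the members with an unadjusted p under 0.05.

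Ern1 was at 82.3, 70.9 and 91.3 CPM in mCherryHigh 1, 5 and 6, against 32.2, 40.2 and 39.6 CPM in mCherryLow 1, 5 and 6. Each mCherryHigh library lay above each mCherryLow library. The difference was 1.11 (SE 0.28, limma adjusted p = 0.444), 2.15-fold on the log2(CPM + 1) scale. It was 1.33 within the code series of the libraries numbered 1 and 0.81 within that of mCherryHigh 5, mCherryLow 5 and mCherryLow 6. Manf was at 162, 174 and 163 CPM in mCherryHigh 1, 5 and 6, against 221, 356 and 214 CPM in mCherryLow 1, 5 and 6, again without overlap, a difference of -0.63 (SE 0.26, adjusted p = 0.523). Hyou1 was the other member whose groups did not overlap, at 69.9, 60.6 and 101.0 CPM in the mCherryHigh libraries, against 54.1, 58.4 and 58.5 CPM in mCherryLow. These are 2 members not overlapping and higher (10.2% of all genes) and 1 lower (5.78%), shares no larger than the background.

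Next by unadjusted p came Sdf2l1, Pdia6 and Herpud1. Sdf2l1 was at 83.9, 120.0 and 88.4 CPM in mCherryHigh 1, 5 and 6, against 144, 171 and 106 CPM in mCherryLow 1, 5 and 6 (-0.51, limma adjusted p = 0.611). Pdia6 was at 525, 890.5 and 665 CPM in the mCherryHigh libraries, against 699, 1338 and 998 CPM in mCherryLow (-0.53, adjusted p = 0.623). Herpud1 was at 0.40 (adjusted p = 0.706), with the per-library values given above. The groups overlapped for all 3 genes.

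Xbp1 differed by 0.15 (SE 0.22), Calr by -0.14 (SE 0.22) and Pdia4 by -0.20 (SE 0.50), all within the spread of the libraries. The direction of Pdia4 was not stable, at 1.502 within the series of the libraries numbered 1 and -1.10 within that of mCherryHigh 5. In the ATF4 branch, mCherryHigh 1 was far below mCherryHigh 5 and 6 in several genes. Atf3 was at 7.77 CPM there, against 141 and 59.2 CPM, and Ddit3 at 15.5 CPM, against 60.4 and 67.5 CPM. That library is the shallowest of the 9, and the part of its depth was not tested.

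Wider lists of the same pathways are given beside the shares over all genes, of which 8.87% were called lower and 34.2% higher in DTC than in mCherryLow and 7.19% lower and 23% higher than in mCherryHigh. Among genes at 20 CPM or more, 16% were called lower against mCherryLow and 13.3% against mCherryHigh. In the same order, 1661 of 9374 and 1383 of 9517 were called higher. Of 51 tested genes among 52 other ER genes (translocation, glycosylation, ERAD and further folding factors), 18 were lower and 2 higher in DTC than in mCherryLow, and 14 lower and 0 higher than in mCherryHigh, with medians of -0.85 and -0.94. Os9, a lectin of ERAD, was at 60.9, 78.4 and 45.5 CPM in DTC, against 197, 306 and 227 CPM in the mCherryHigh libraries and 274, 239 and 239 CPM in mCherryLow, with differences of -1.98 against mCherryHigh and -2.04 against mCherryLow (limma adjusted p = 0.00408 and 0.00111). Rpn2, a subunit of the oligosaccharyltransferase, differed by -2.02 and -1.91 from the same groups (adjusted p = 0.00473 and 0.00259). The transferase subunit Stt3b fell by 2.03 against mCherryLow (adjusted p = 0.00186), and the oxidase Ero1l, which keeps disulfide isomerases active, fell by 2.16 against mCherryHigh (adjusted p = 0.00999). Sec61g, a subunit of the translocation channel, and the lectin Erlec1 rose against mCherryLow by 2.28 (adjusted p = 0.00440) and 1.21 (adjusted p = 0.0303).

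Among 45 other ATF4 and integrated stress response genes, 4 were higher and 10 lower in DTC than in mCherryLow, and 5 higher and 3 lower than in mCherryHigh, with medians of -0.40 and -0.36. The higher calls are a smaller share than over all genes in both comparisons, and the lower calls against mCherryHigh are near the share over all genes. Those that rose included Aldh1l2, a mitochondrial folate enzyme, at 89.1, 36.5 and 132 CPM in DTC, against 7.77, 5.92 and 8.08 CPM in mCherryHigh and 3.41, 12.6 and 5.14 CPM in mCherryLow (3.22 against mCherryHigh and 3.42 against mCherryLow, limma adjusted p = 0.00305 and 0.00131). The transcription factor Atf5 rose by 2.91 against mCherryHigh and 2.32 against mCherryLow (adjusted p = 0.0127 and 0.0117). Gdf15, a secreted stress cytokine, rose by 2.23 against mCherryLow (adjusted p = 0.00516), and the amino acid transporter Slc7a5, the light-chain partner of Slc3a2, rose by 3.81 against mCherryHigh (adjusted p = 0.0200), with mCherryHigh 1 at 0. Lower in DTC than in mCherryLow were the translation inhibitor Eif4ebp1 (-1.78, adjusted p = 0.00384), the glycyl-tRNA synthetase Gars (-2.08, adjusted p = 0.00638) and the proline synthesis enzyme Aldh18a1 (-1.43, adjusted p = 0.00652). Vldlr (-1.22), Jdp2 (-1.38) and the isoleucyl-tRNA synthetase Iars (-1.57) were lower than in mCherryHigh (adjusted p between 0.0268 and 0.0482).

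The heat shock genes of the cytosol, set beside the ER list as the matching system outside the ER, had calls in both directions against mCherryLow. Of 24 genes, 6 were higher and 3 lower in DTC than in mCherryLow, and 4 higher and 0 lower than in mCherryHigh, with medians of -0.35 and 0.19. The higher calls are a smaller share than over all genes in both comparisons. Among genes at 20 CPM or more, 1661 of 9374 and 1383 of 9517 were called higher. The shares of the heat shock list lie above the first of these and near the second. Hspa8, the constitutive cytosolic Hsp70, was at 567, 765 and 330.1 CPM in DTC, against 106, 109 and 131 CPM in mCherryHigh and 143, 136 and 176 CPM in mCherryLow (2.18 against mCherryHigh and 1.79 against mCherryLow, limma adjusted p = 0.00309 and 0.00284). Hsp90aa1 rose by 2.70 against mCherryHigh and 2.48 against mCherryLow (adjusted p = 0.00479 and 0.00249), and was at 772 and 746 CPM in DTC 1 and 2 and 194 CPM in DTC 3. Hspa1b rose by 1.88 against mCherryLow (adjusted p = 0.00833) and Dnaja1 by 1.47 against mCherryHigh (adjusted p = 0.0233). These genes have near-identical copies: 60.6% of the 50-base windows of Hspa8, 52.5% of Hsp90aa1, 37.7% of Hspa1b and 79.5% of Dnaja1 were unique among annotated transcripts, so their values are uncertain. The co-chaperone Stip1 (-1.64, adjusted p = 0.0188), the heat shock transcription factor Hsf1 (-1.50, adjusted p = 0.0216) and Hspa4 (-1.08, adjusted p = 0.0396) fell against mCherryLow. Among the members, 81.9% of the windows of Cebpb and 90.3% of those of Hsp90b1 were unique, and 93.8% or more of those of the others.

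Between mCherryHigh and mCherryLow, limma and edgeR called 0 genes of the 3 wider lists. DESeq2 called Ddit4 higher and Gars and Mthfd2 lower. An unadjusted limma p under 0.05 was reached by 2 of 52 ER, 10 of 44 ATF4 and 2 of 24 heat shock genes. Over all genes tested it was reached by 1448 of 15437. The ATF4 share lies above the share over all genes, and the ER and heat shock shares do not. The 44 ATF4 and integrated stress response genes tested had a median of -0.30, against 0.09 over all genes and -0.02 over those at 20 CPM or more. The groups did not overlap for 5 of the 44 with mCherryHigh higher and for 9 with mCherryHigh lower. Over all genes the shares were 10.2% and 5.78%. Among the 44 genes, Mthfd2, a mitochondrial folate enzyme, was at 1.55, 14.1 and 18.9 CPM in mCherryHigh 1, 5 and 6, against 79.0, 74.6 and 140.5 CPM in mCherryLow 1, 5 and 6. Gars was at 208, 166 and 162 CPM in the mCherryHigh libraries, against 362, 430.0 and 428 CPM in mCherryLow, and the asparaginyl-tRNA synthetase Nars at 287, 356 and 289.7 CPM, against 521, 597 and 458 CPM. All 3 had a limma adjusted p of 0.444 and groups that did not overlap. In the other direction, Ddit4, an inhibitor of mTORC1 signalling, was at 83.9, 20.6 and 62.6 CPM in the mCherryHigh libraries, against 15.1, 6.76 and 9.36 CPM in mCherryLow (2.16, adjusted p = 0.449), and Vldlr was at 1.38 (adjusted p = 0.511). Sec62 (0.56), Kdelr1 (0.57) and Erlec1 (0.63) of the ER list and Stip1 (-0.58) and Hsf1 (-1.04) of the heat shock list had adjusted p values between 0.488 and 0.557.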

How the data were processed

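RNA (RNAqueous-Micro) was made into libraries with SMART-seq v4 and Nextera XT, per the labels' protocols. The build was mm9, per the submitters' processing notes; for the aligner, the counting tool and the use of strand, the sources used here give no name. The deposited table holds CPM by the authors for 24012 genes in 9 libraries. All values were whole multiples of 1 read within 0.01 read (100%), so read totals were recovered.

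For each pair of groups, genes reaching 1 CPM in 3 or more libraries entered limma 3.58.1 (R 4.3.3, with trend, two-sided) on log2(CPM + 1), on group alone, with Benjamini-Hochberg adjustment over all genes and a threshold of 0.05. Fold changes on that scale understate the change of low genes. All 32 members passed the filter in all 3 comparisons. The members and all gene lists were chosen with earlier results of these data known. Of 207 list entries 204 were found, 3 of them by gene ID. Values per library are given for Xbp1, Calr, Pdia4, up to 8 called members by p, the 5 members of smallest p between mCherryHigh and mCherryLow, and for the other lists the 3 genes of smallest p in each direction. The values shown for Atf3, Ddit3, Cebpb, Asns and Hyou1 were chosen after they were seen.

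Alternatives were pseudocounts of 0.5 and 5 CPM, no filter and 5 CPM, quantile and median-of-ratios scaling, thinning to 643748 reads, limma without trend, one fit of all 9 libraries, edgeR 4.0.16 and DESeq2 1.42.0 on recovered reads, the label number as a block, the code series, and leaving out each library. The procedure was tested on simulated data. Transcript lengths and unique windows came from a GENCODE annotation of GRCm38, promoters from RefSeq (GRCm38.p6). A count of 0 allows up to 3 reads, 4.66 CPM in mCherryHigh 1 and 0.253 CPM in mCherryLow 6, counting error only.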

Additional observations from a re-analysis of the deposited data

How the results depend on the processing

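Of the counts and list differences under the alternatives, 129 stayed near the main value and 10 moved. Counts were judged by their size relative to the main count, and a count of 0 that stayed at 0 is among the 129. All counts of members called higher, and all counts between mCherryHigh and mCherryLow, were of this kind. The 10 that moved were all counts of members called lower in DTC. List differences were judged by whether they lay within the pooled SD of the main difference, so those that changed sign are among the 129. Against 14 members called lower in DTC than in mCherryLow, quantile normalization gave 6 and thinning to the shallowest library 8, while edgeR and DESeq2 each gave 19; leaving out 1 library gave between 4 (without DTC 1) and 14, with 6 without mCherryLow 5 or 6, 9 without DTC 3 and 11 without mCherryLow 1. Against 12 members called lower in DTC than in mCherryHigh, quantile normalization gave 7, limma without trend 5, thinning 8, and edgeR and DESeq2 13 each; leaving out 1 library gave between 4 (without DTC 1) and 12, with 5 without mCherryHigh 5, 8 without mCherryHigh 6 or DTC 3 and 9 without mCherryHigh 1. The cause was not tested. No alternative called a member higher in DTC. The lower calls over all genes varied too. Against mCherryLow they numbered 1186 of 19068 with thinning and 1073 of 18253 without mCherryLow 1. Without mCherryLow 5 and 6 they numbered 1359 of 18435 and 976 of 18367. Against mCherryHigh they numbered 991 of 19700 with limma without trend and 1090 of 19793 with thinning. Without mCherryHigh 1, 5 and 6 they numbered 1569 of 18567, 723 of 19362 and 858 of 19320. Over all genes, those called lower against mCherryLow numbered 1659 in the main test, 3098 with edgeR, 2945 with DESeq2, 3014 after median-of-ratios scaling and 2036 after quantile normalization; against mCherryHigh they were 1417, 2118, 2098, 1913 and 1535. The median of all genes against mCherryLow was 0.59 as deposited, 0.30 after median-of-ratios scaling, 0.14 with edgeR and -0.14 after quantile normalization, and that of the members -0.90, -1.25, -1.42 and -0.70.

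The values followed were of members called in DTC, and Xbp1, Calr, Pdia4 and the 5 of smallest p between mCherryHigh and mCherryLow. Of these values, 480 kept direction and call status, 107 lost the call and 7 reversed, all 7 between mCherryHigh and mCherryLow. Values between mCherryHigh and mCherryLow had no call to lose, and those that stayed uncalled are among the 480. All 107 lost calls were of members called lower in DTC. Over all 32 members and alternatives, 22 of 544 values against mCherryLow and 14 of 544 against mCherryHigh turned in direction, 0 of them of called members; Atf4, Atf3, Manf, Creld2, Canx, Hsp90b1, Hyou1, Cebpb, Ern1, Ddit3, Eif2ak3 and Sel1l turned in at least 1 comparison. Between mCherryHigh and mCherryLow 68 of 608 did. Calr lay between -0.267 (without mCherryHigh 5) and 0.0385 (without mCherryHigh 1) when 1 library was left out, and Pdia4 between -0.81 and 0.13, with 0.0173 under the code series as a term. Xbp1 was at -0.0041 with median-of-ratios scaling, -0.0127 with edgeR and -0.0126 with DESeq2. For mCherryHigh and mCherryLow, the fit with the label number as a replicate block called 0 members higher and 0 lower. The numbers were not treated as pairs: same-numbered libraries correlated at -0.204, -0.0234 and 0.270 in their deviations from the group means, and not every library correlated best with its own number. DTC libraries were not paired with the others, as DTC carries the numbers 1 to 3 with no stated link. At 643748 to 2052623 reads, members under about 20 CPM rest on few reads in the DTC libraries and mCherryHigh 1, and smaller differences in them were not detectable.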
